A study of Mus musculus with 2 samples.

Results

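The 42 genes described here encode the protein kinases, checkpoint proteins and kinetochore subunits of mitosis, and were chosen by name. Every one of them had a value in the expression table, which lists 29833 genes. The table gives 1 transcript for each gene and transcript class, protein-coding or long noncoding RNA (lncRNA), and each such entry is called a record here. The 42 genes held 62 of the 37178 records, 42 of them protein-coding and 20 lncRNA. In the GENCODE annotation, all 20 lncRNA records are noncoding processed transcripts of genes that also have a protein-coding record, so 20 genes were measured in both forms.

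During mitosis, kinetochores assemble on centromeric chromatin and attach each chromosome to spindle microtubules. Kinetochores without attachment start the spindle assembly checkpoint, which holds back the anaphase-promoting complex (APC/C) until all chromosomes are attached. Embryonic stem cells divide rapidly with short gap phases, and genes of this machinery are transcribed mainly in G2 and mitosis.

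RNA came from F123 mouse embryonic stem cells (mESCs), a male hybrid line from an S129/Jae mother and a CAST father, in a single untreated group of 2 replicates. The cells were passaged without feeder cells at least 2 times and harvested after about 48 h, and stranded libraries were made from 1 µg of total RNA and read as pairs of 75 bases. Reads over a strain-specific base reveal which of the 2 alleles they came from. The deposited table holds both replicates pooled, so the spread between them is unknown and all intervals and standard errors given here cover counting error only. Since this is 1 line from 1 cross, CAST is also the paternal and S129 the maternal chromosome, and strain and parent of origin cannot be told apart.

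The allelic reads of all records summed to 16343693, of which 50.4% were CAST. All 8 marker genes of mESCs were expressed, at TPM (transcript abundance scaled for gene length and library size) of 24.4 to 381. Among 8 fibroblast genes, which mark the feeder cells, 4 reached a TPM of 1 and the highest stood at 8.77. The 6 germ layer markers lay between 1.74 and 21.4. Whether such cells contribute to the values of the mitotic genes was not tested. Among these markers, Esrrb, Thy1, Col1a1 and Pax6 were read in lncRNA records and the others in protein-coding ones.

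Mitotic and kinetochore genes were expressed well above the typical gene. The TPM used here covers exons and introns and is per length, so levels can be set side by side between genes. The median of the 42 protein-coding records was 23.0 TPM, against 6.70 TPM over the 10902 protein-coding records with a TPM of at least 1. In all, 35 of the 42 lay above that median and 8 at or above the 90th percentile of those records. On this scale the lowest was Mad1l1, which recruits Mad2l1 to unattached kinetochores, at 1.84 TPM.

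The 10 highest protein-coding records came from several of the groups. Cdc20, the APC/C activator that the checkpoint inhibits, stood at 109 TPM. Birc5 (survivin), which brings the chromosomal passenger complex to centromeres, reached 66.5 TPM, and the mitotic kinase Plk1 59.5 TPM. Next came Bub3, a checkpoint adaptor, at 52.8 TPM, the centromeric DNA-binding protein Cenpb at 48.3 TPM and Pttg1 (securin), the separase inhibitor degraded at anaphase, at 48.1 TPM. Bub3 and Cenpb lie wholly inside the spans of Fgfr2 and Spef1, and the part of those genes in these levels was not tested. Spc24, a subunit of the Ndc80 complex, followed at 47.3 TPM. Mad2l1, the checkpoint protein that captures Cdc20, had 40.9 TPM in its protein-coding record. Cenpt, an inner kinetochore protein that binds the Ndc80 complex, had 34.6 TPM, and Aurkb, the kinase of the passenger complex, 33.9 TPM.

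Subunits of the same complex stood at unlike RNA levels, with no replicate spread to set beside them. In the Ndc80 complex, which forms the main contact with microtubules, Spc24 and Spc25 stood at 47.3 and 25.0 TPM and their partners Ndc80 and Nuf2 at 5.72 and 4.64 TPM. The 11 inner kinetochore genes had the lowest median of the groups with at least 2 genes, 7.34 TPM, and spanned 2.85 TPM (Cenpp) to 34.6 TPM (Cenpt). Levels over exons alone were within 1.5-fold of these values for 37 of 42 genes. The other 5 were lower over exons alone. Cenpp had 0.42 against 2.85 TPM and was then the lowest of the 42, Nek2 had 9.00 against 31.5 TPM and Plk4 7.13 against 17.2 TPM. Mad1l1 had 1.16 against 1.84 TPM and Cenph 5.78 against 9.43 TPM, so the places of these 5 genes in the order depend on the part of the gene that is counted. The highest value of any record, 209 TPM, came from the lncRNA record of Mad2l1, whose exons span 229 bases. Some protein-coding records are short too, with 582 exonic bases in Plk1, 670 in Espl1, 600 in Ttk and 286 in Cenpm. Levels and allelic shares of these 4 genes are those of the listed transcript and may not describe the whole gene.

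**Figure D1:**
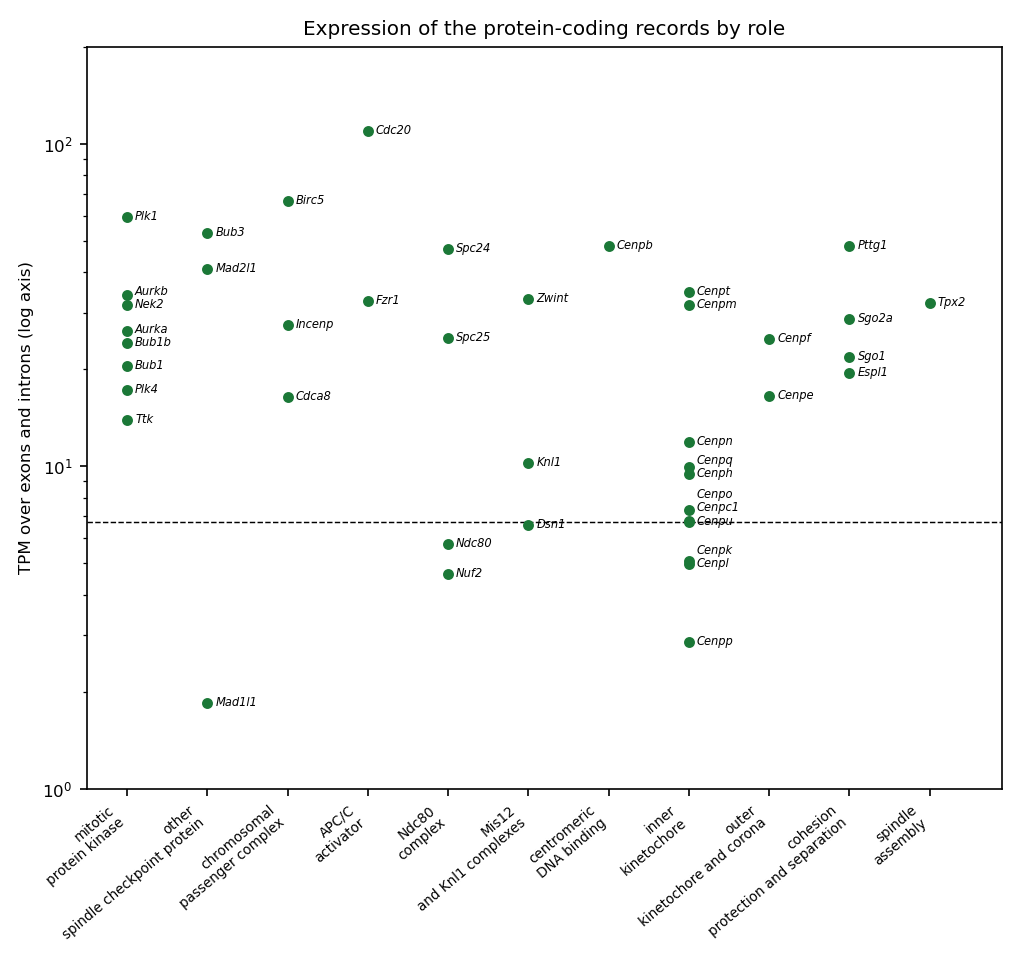
Expression level of each protein-coding record in TPM over exons and introns (log axis), grouped by the role of the gene; each point is 1 gene with both replicates pooled, labels of close points are shifted upwards, and the dashed line marks the median of all expressed protein-coding records (6.70 TPM). Cdc20 is highest at 109 TPM, Mad1l1 lowest at 1.84 TPM, and 35 of the 42 genes lie above the line.

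Promoters of mitotic genes often hold a cell cycle genes homology region (CHR), the element bound by the DREAM and MuvB complexes, a short distance downstream of CCAAT boxes, which bind the NF-Y factor. Both were counted, on both strands, as the letters TTTGAA or TTCGAA (CHR) and CCAAT in the window of 250 bases before to 50 bases after each start site in RefSeq (GRCm38.p6). Of the 42 genes, 38 had an entry, and Aurkb, Incenp, Spc24 and Tpx2 had none. The RefSeq start lay within 100 bases of the start of the protein-coding record in 32 of the 38. In Plk1, Bub3, Mad2l1, Fzr1, Cenpo and Cenpq it lay 146 to 473 bases away. Windows of these genes are counted below but may not be those of the measured transcripts. CCAAT was present in 25 of 38 windows (65.8%), against 39.3% of 8504 expressed protein-coding genes and 37.4% of all 32851 windows of the same length. A CHR was present in 17 (44.7%), against 13.1% and 19.2%. Both together were found in 15 (39.5%), against 5.76% and 7.52%. TTCGAA reads the same on both strands and was counted once, the motifs can overlap by end letters, and a match describes the sequence, not a bound site.

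Stretches of 5 promoters are shown, from the genes with the 2 CAST-biased transcripts and from 3 others in which both motifs were found, printed 5′ to 3′ on the strand of the gene up to the first annotated exon, with motif letters in capitals. Their mm10 positions are chr2:172370571-172370680 (Aurka, minus strand), chr2:118598071-118598210 (Bub1b, plus), chr9:83834549-83834688 (Ttk, plus), chr2:69206214-69206353 (Spc25, minus) and chr4:118437353-118437483 (Cdc20, minus).
Aurka: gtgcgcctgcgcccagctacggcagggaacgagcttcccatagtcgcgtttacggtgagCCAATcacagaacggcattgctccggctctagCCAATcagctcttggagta
Bub1b: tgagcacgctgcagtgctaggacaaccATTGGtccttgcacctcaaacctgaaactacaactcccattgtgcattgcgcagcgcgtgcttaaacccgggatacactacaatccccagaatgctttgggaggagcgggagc
Ttk: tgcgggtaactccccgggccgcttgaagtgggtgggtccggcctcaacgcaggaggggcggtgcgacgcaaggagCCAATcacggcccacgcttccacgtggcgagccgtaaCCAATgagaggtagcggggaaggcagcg
Spc25: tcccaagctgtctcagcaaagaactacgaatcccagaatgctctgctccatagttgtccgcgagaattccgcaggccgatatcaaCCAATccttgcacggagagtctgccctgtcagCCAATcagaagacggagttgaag
Cdc20: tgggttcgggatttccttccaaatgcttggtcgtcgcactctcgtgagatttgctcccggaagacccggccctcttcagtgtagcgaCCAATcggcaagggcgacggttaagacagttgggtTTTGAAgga
The CCAAT boxes were 32 bases apart from start to start in Aurka and Spc25 and 37 bases apart in Ttk. In these 3 genes the TTTGAA element lay downstream of the printed stretch, at 32, 24 and 7 bases after the RefSeq start. Bub1b held a single box, in reverse orientation (ATTGG), at position -113 from the start, with a TTCGAA at position -188 and a TTTGAA at 40 bases after the start. Cdc20 carried its TTTGAA upstream of the start, at position -18. Among the 2 other genes with a call for allele-specific expression, the window of Ndc80 held a TTTGAA and no CCAAT, and that of Cenpq held 3 CCAAT boxes and no CHR. The RefSeq start of Cenpq lies 473 bases from the start of its record, so this window is not that of the measured transcript.

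To ask whether both parental copies of the mitotic machinery are expressed alike, CAST and S129 reads were compared in each record by a two-sided exact binomial test, with Benjamini-Hochberg adjustment over all records with allelic reads. Allele-specific expression (ASE) was called at a TPM of at least 1 with a 2-fold or larger difference and an adjusted p no higher than 0.05. Of the 62 records, 61 could be tested. The lncRNA record of Cenpl, with 0.95 TPM and no variant, could not. ASE was called in 4 of the 61 records, 2 with more CAST and 2 with more S129 reads, or 6.56%, against 14.1% of all 15935 tested records, of which 8.33% were called for CAST and 5.78% for S129. Split by class, 3 of 42 protein-coding records were called, against 12.7% of all tested ones, and 1 of 19 lncRNA records, against 16.6%. Among records with at least 100 allelic reads, the shares lay closer, at 7.02% of members and 11.9% of all tested records. No member record was monoallelic, next to only 193 of all 15935 tested records, and the CAST share of allelic reads ranged from 28.2% to 73.6%.

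Bub1b (ENSMUSG00000040084, chr2:118598211-118641591, plus strand), which encodes the checkpoint protein BubR1, was the most CAST-biased of all member records. It had 3502 CAST and 1259 S129 reads over 42 variants, 14 of them exonic and 28 intronic. The CAST share was 73.6% (95% interval 72.3 to 74.8%), a log2 fold change (CAST over S129) of 1.48 with a standard error of 0.047 and an adjusted p of 1.46e-238 in the exact binomial test. At 24.1 TPM, it was also among the 30 member genes with at least 10 TPM in their protein-coding record.

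Aurka (ENSMUSG00000027496, chr2:172356196-172370506, minus strand), the kinase that drives centrosome maturation and spindle assembly, was the other record with more CAST reads. Its 1454 CAST and 607 S129 reads covered 7 exonic and 47 intronic variants. CAST made up 70.5% of them (68.5 to 72.5%), and the log2 fold change was 1.26 ± 0.070 (SE), with an adjusted p of 4.56e-78 by the exact binomial test. Its level was 26.3 TPM. Tpx2, the spindle protein that binds and activates Aurka, had 47.6% CAST of 8100 reads in its protein-coding record.

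Cenpq (ENSMUSG00000023919, chr17:40923051-40935047, minus strand), an inner kinetochore subunit, was called in the opposite direction. The S129 allele gave 158 of 221 reads, so that the CAST share was 28.5% (22.7 to 34.9%), with a log2 fold change of -1.33 ± 0.21 (SE) and an adjusted p of 8.76e-10 by the exact binomial test. This call rests on 4 variants, the fewest of the 4 called records. Cenpq is known to assemble with Cenpo, Cenpp, Cenpu and CENP-R, the product of Itgb3bp. Cenpo, Cenpp and Cenpu had CAST shares of 45.2%, 46.7% and 58.7% in their protein-coding records and were not called. Itgb3bp, from the list of other mitotic genes, was called for S129 in its protein-coding record, with 86 CAST and 199 S129 reads over 7 variants (30.2%). Its lncRNA record, with 238 and 362 reads over 20 variants (39.7%), leaned the same way but was not called.

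Ndc80 was called in its lncRNA record alone, which covers the 3′ part of the gene (chr17:71496103-71513108, minus strand). It had 110 CAST and 280 S129 reads over 13 variants, a CAST share of 28.2% (23.8 to 33.0%) and a log2 fold change of -1.35 ± 0.16 (SE), with an adjusted p of 3.52e-17 by the exact binomial test. The protein-coding record, which contains it, leaned the same way with 392 CAST and 602 S129 reads (39.4%) but stayed under the 2-fold minimum. In the 28 variants of the protein-coding record outside the lncRNA record, 282 CAST and 322 S129 reads were counted, 46.7% CAST (42.7 to 50.8%). Outside the lncRNA record the interval of Ndc80 thus included equal shares.

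**Figure D2:**
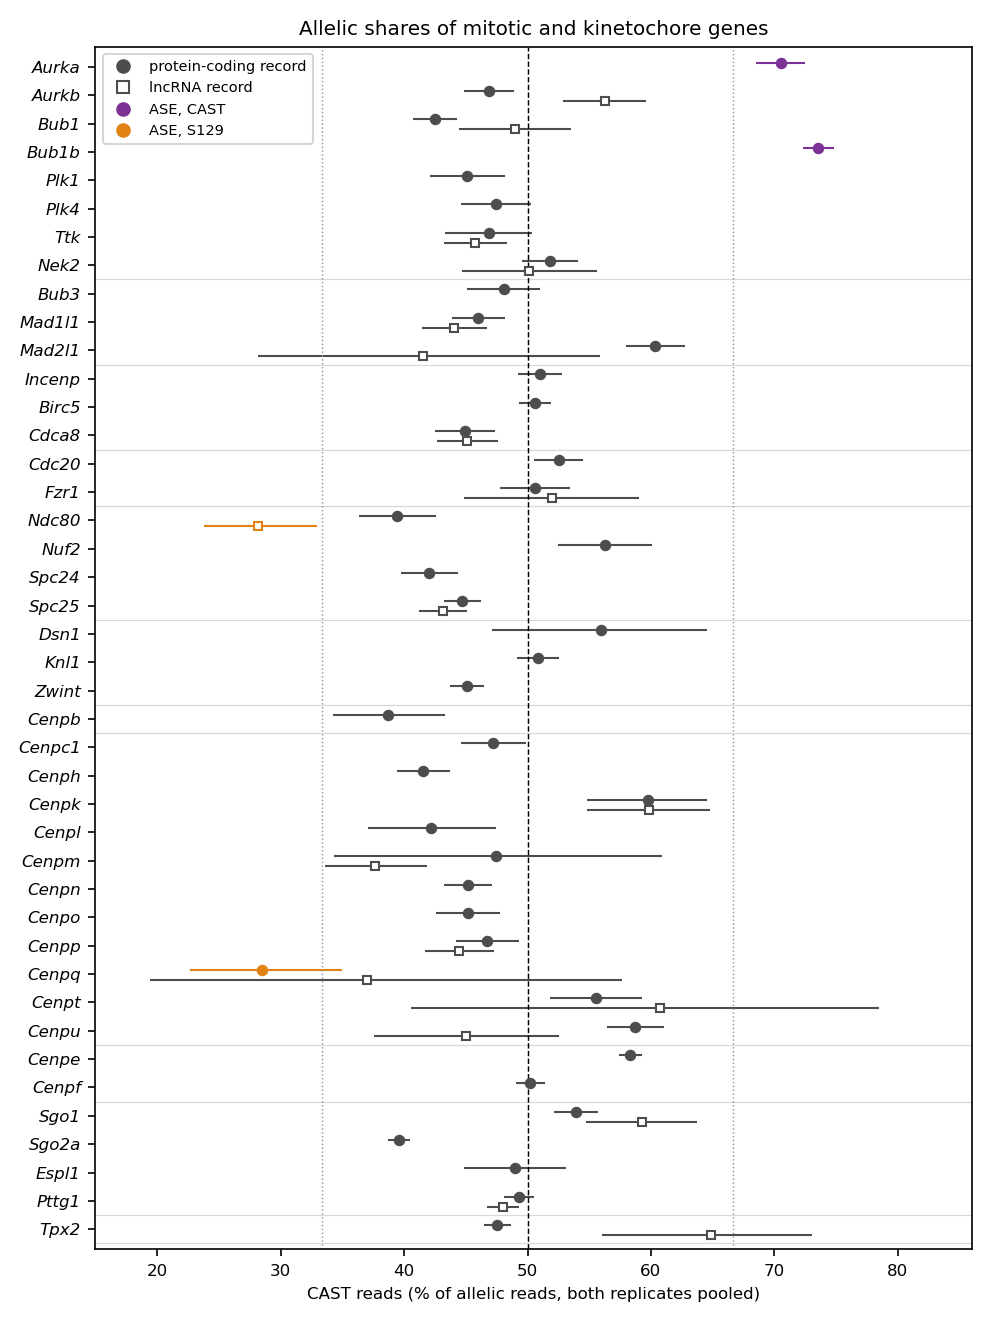
CAST reads as a percentage of allelic reads in each tested record, with exact (Clopper-Pearson) 95% intervals for counting error; filled circles are protein-coding and open squares lncRNA records, grey lines separate roles, the dashed line marks equal shares and the dotted lines the 2-fold minimum. Aurka and Bub1b (purple) lie to the right of it at 70.5% and 73.6%, Cenpq and the lncRNA record of Ndc80 (orange) to the left at 28.5% and 28.2%, and 49 of the 61 records lie between 40% and 60%.

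All 4 calls depend on how much spread is assumed between reads of a gene. With a beta-binomial test and an intra-gene correlation of 0.01 all 4 were kept, at adjusted p between 1.97e-05 (Bub1b) and 0.0032 (Cenpq). With a correlation of 0.05 none was, at adjusted p of 0.379 (Bub1b), 0.562 (Ndc80), 0.619 (Aurka) and 0.621 (Cenpq), while the count over all tested records fell from 2249 to 487. Both correlations were chosen and not estimated from these data. At a fixed correlation the assumed spread hardly narrows with more reads, so deeply counted records can fail as well. The base that differs from the reference genome was on S129 in 17 of the 42 variants of Bub1b, 12 of the 54 of Aurka and 3 of the 4 of Cenpq, but in 1 of the 13 of the Ndc80 lncRNA record, against 11.1% of variants over all records. Reads with a non-reference base can be harder to align, and the part of this in the calls was not tested.

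Beyond the 4 calls, allelic differences were small, and those larger than counting error did not hold under a wider assumed spread. By adjusted p alone, 40 of 61 records differed between alleles (65.6%), against 48.3% of all tested records. These were 14 with more CAST and 26 with more S129 reads, next to 25.4% and 22.9% of all tested records. The exact binomial test treats every count as independent, although a read can be counted at several variants. With the beta-binomial test at a correlation of 0.01, the 40 records fell to the 4 called ones, while 14.3% of all tested records passed. The remaining 36, such as Sgo2a (adjusted p 0.165), Mad2l1 (0.187), Cenpe (0.324) and Bub1 (0.410), did not. As the correlation was chosen and not estimated, this cannot decide whether the differences of these 36 records exceed the true spread. In what follows, a record that passed the test did so in the exact binomial test alone. Members were counted more deeply, with a median of 1413 reads and 30 variants per record against 397 reads and 13 variants over all, which lets smaller differences pass. The median absolute log2 fold change was 0.29, compared with 0.36 over all tested records, and 80.3% of member records had a CAST share between 40% and 60%, compared with 67.4%. In direction, 37 of 61 records had more S129 reads (60.7%, against 48.1% over all) and the median CAST share was 47.5% (50.1% over all). Counting the 42 protein-coding records alone, which do not repeat a gene, 25 had more S129 reads (59.5%, against 47.9%).

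**Figure D3:**
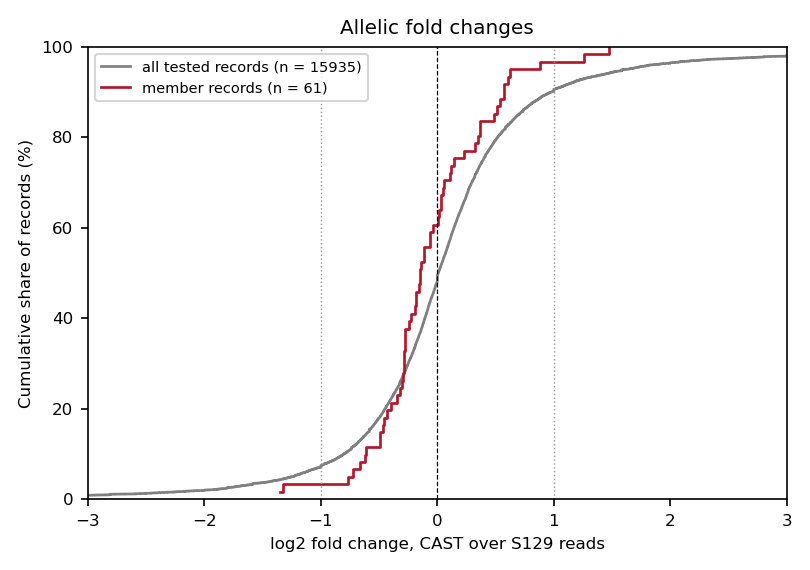
Cumulative share of records (%) by log2 fold change of CAST over S129 reads, for the 61 member records (red) and all 15935 tested records (grey), with dotted lines at the 2-fold minimum; values beyond the axis are not drawn. The red curve is higher than the grey one at equal expression (60.7% against 48.1% of records below it) and steeper, with 4 records outside the dotted lines.

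Of the 8 mitotic kinases, the other 6 stayed within 42.5% to 51.8% CAST in their protein-coding records. Bub1, the kinase that recruits checkpoint proteins and shugoshins, had 1287 CAST and 1741 S129 reads (42.5%, adjusted p 1.56e-15 in the exact binomial test). Plk1, which acts from mitotic entry to cytokinesis, had 485 and 590 reads (45.1%), and Aurkb 1144 and 1297 (46.9%). Differences in these 3 genes were below 1.5-fold. The test was not passed by Plk4, the kinase of centriole duplication (577 and 640 reads), by the protein-coding record of Ttk (Mps1), which starts checkpoint signalling (378 and 429), or by Nek2, which separates centrosomes (972 and 903).

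Among the other checkpoint proteins, Mad2l1 had 1005 CAST and 660 S129 reads (60.4%, 58.0 to 62.7%), a log2 fold change of 0.61 ± 0.072 (SE). Its partner Mad1l1 leaned to S129 with 990 and 1161 reads (46.0%). Bub3 was balanced within counting error at 547 and 591 reads, and since the whole gene lies inside the span of Fgfr2 on the opposite strand, reads of both genes may enter its count. Members of the passenger complex other than Aurkb stayed close to equal shares, with Incenp, its scaffold, at 51.0%, Birc5 at 50.6% and Cdca8 (borealin) at 44.9%. Only Cdca8 passed the test among these 3, with 729 CAST and 893 S129 reads. The APC/C activators were similarly even, at 52.5% in Cdc20 (1271 and 1149 reads, adjusted p 0.031 in the exact binomial test) and 50.6% in Fzr1 (Cdh1), which takes over from Cdc20 in late mitosis.

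In the Ndc80 complex, the 6 tested records of 4 genes all passed the test, which 48.3% of all tested records did, 5 with more S129 and 1 with more CAST reads. The lncRNA records of Ndc80 and Spc25 lie inside the protein-coding ones and repeat their reads, and at a correlation of 0.01 only the Ndc80 lncRNA record passed. Besides Ndc80, the S129 excess was found in Spc24 (773 CAST and 1065 S129 reads, 42.1%) and in Spc25 (1926 and 2383, 44.7%). These 2 proteins anchor the complex to the inner kinetochore. Nuf2, which pairs with Ndc80 at the microtubule end, went the other way with 380 and 295 reads (56.3%). In the group of the Mis12 and Knl1 complexes, Zwint, a partner of Knl1, had 2212 CAST and 2692 S129 reads (45.1%) and passed the test. Knl1, which recruits Bub1 and Bub3, had 1665 and 1610, and Dsn1, a subunit of the Mis12 complex, 75 and 59, and neither passed it.

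Of the 11 inner kinetochore genes, 8 had more S129 reads in their protein-coding record, next to 47.9% of all tested protein-coding records. Apart from Cenpq, the lowest CAST shares were those of Cenph (848 CAST and 1192 S129 reads, 41.6%) and Cenpl (154 and 211, 42.2%). Cenpn, which reads the centromeric nucleosome together with Cenpl, had 45.2%, Cenpo 45.2% and Cenpp 46.7%, and all 5 passed the test. Cenpc1, which links that nucleosome to the outer kinetochore, had 667 and 746 reads, and Cenpm 28 and 31, and these did not pass it. More CAST reads were counted in Cenpk (242 and 163, 59.8%), Cenpu (1058 and 743, 58.7%) and Cenpt (389 and 311, 55.6%), each with a difference below 1.5-fold. On the opposite strand, Cenpo overlaps Adcy3 (69 CAST and 206 S129 reads) and Ptrhd1 (113 and 101), and Cenpu overlaps Primpol (627 and 321). Cenpp overlaps Tes3-ps, Ecm2, Aspn, Omd and Ogn in the same way. Reads of these other genes may enter the counts of Cenpo, Cenpp and Cenpu, and their part was not tested. Cenpb, which binds a DNA motif of centromeric repeats, had 178 CAST and 282 S129 reads (38.7%, 34.2 to 43.3%). Its single exon lies wholly inside Spef1 on the same strand, which had 199 and 291 reads, so the reads of these 2 genes cannot be told apart.

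Cenpe and Sgo2a, 2 of the records with most reads, differed in opposite directions by less than 2-fold. Cenpe, the kinesin that moves chromosomes to the spindle equator, had 6581 CAST and 4702 S129 reads over 160 variants (58.3%, 57.4 to 59.2%). Sgo2a, a shugoshin that protects centromeric cohesin, had 4694 and 7167 reads over 101 variants (39.6%, 38.7 to 40.5%), a log2 fold change of -0.61 ± 0.027 (SE). Both intervals, for counting error alone, lie between equal shares and the 2-fold minimum. Cenpf, a large protein of the outer kinetochore, was even in contrast, with 3398 and 3367 reads (50.2%). The paralog of Sgo2a, Sgo1, had 1654 and 1413 reads (53.9%) and passed the test in the CAST direction. Espl1 (separase), the protease that opens cohesin, and its inhibitor Pttg1 did not pass it, at 49.0% of 588 and 49.3% of 6604 reads. Tpx2, with 3853 and 4247 reads, leaned slightly to S129.

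Where a gene had both records, most pairs leaned to the same allele. In 19 genes both could be tested, 15 of them leaned to the same allele in both records, 4 (Aurkb, Mad2l1, Cenpu and Tpx2) to opposite alleles, and in 13 the intervals overlapped. Since 14 of the 19 lncRNA records lie wholly inside the protein-coding record, they share reads and are not independent. The intervals were apart in Aurkb, Bub1, Cenpu, Mad2l1, Ndc80 and Tpx2. In Aurkb the lncRNA record had 489 CAST and 380 S129 reads (56.3%), while the variants outside it had 655 and 917 (41.7%, 39.2 to 44.1%), so the 2 parts of the gene leaned to opposite alleles. The 2 parts of Cenpp did so too, although the intervals of its records overlapped. Its lncRNA record had 44.5% CAST (41.7 to 47.3%), and the variants outside it had 157 CAST and 120 S129 reads (56.7%, 50.6 to 62.6%). Ecm2 (76 CAST and 52 S129 reads) and Tes3-ps (16 and 0) overlap the protein-coding record of Cenpp on the opposite strand, but not its lncRNA record. Their part in the reads outside the lncRNA record was not tested. The lncRNA record of Tpx2, with 85 CAST and 46 S129 reads (64.9%, 56.1 to 73.0%) over 4 variants, also went against the rest of its gene, at 47.3%. That of Mad2l1, despite its high TPM, had 22 and 31 reads from 2 variants, and that of Cenpu 81 and 99 reads from 1 variant. Bub1 had 49.0% CAST in its lncRNA record and 41.3% outside it.

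**Figure D4:**
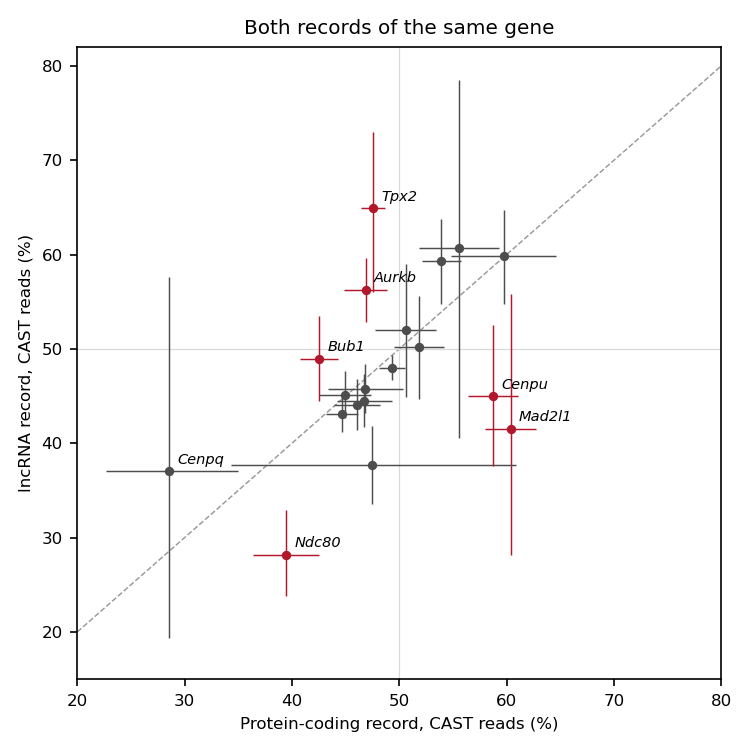
CAST reads (%) in the protein-coding record (horizontal axis) and in the lncRNA record (vertical axis) of the 19 genes with both tested, with exact 95% intervals for counting error; the dashed line marks equal values, and red points are the 6 genes whose intervals do not overlap. Tpx2, Aurkb and Bub1 lie above the line, Cenpu, Mad2l1 and Ndc80 below it, and Cenpq is labelled as a called gene with wide overlap.

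The remaining pairs with overlapping intervals included 5 more lncRNA records with more CAST reads, those of Nek2 (170 and 169 reads), Fzr1 (105 and 97), Cenpk (234 and 157), Cenpt (17 and 11) and Sgo1 (284 and 195). More S129 reads were counted in those of Ttk (667 and 790), Mad1l1 (603 and 765), Cdca8 (719 and 874), Spc25 (1077 and 1419), Cenpp (544 and 679), Cenpq (10 and 17) and Pttg1 (2747 and 2975). Cenpm had 206 CAST and 341 S129 reads in its lncRNA record (37.7%, 33.6 to 41.9%), a log2 fold change of -0.73, while its protein-coding record had too few reads to place it on either side of this (34.3 to 60.9%). Overlap with another gene was found for 12 of the 62 records, of 10 genes, and the counting of allelic reads is not stated to use strand. One case touches a called gene: Cenpq shares 363 bases with Mmut on the opposite strand, which had 846 CAST and 490 S129 reads, the direction opposite to Cenpq.

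Records of other genes whose span came within 500 kb of the span of a called record were compared with it. Around Bub1b, 17 records of 14 genes were tested, of which 5 were called for CAST and 1 for S129, next to 8.33% and 5.78% of all tested records. These included the protein-coding record of Bahd1, a chromatin protein, with 258 CAST and 14 S129 reads. That of Srp14, a subunit of the signal recognition particle, had 18 and 0 over 2 variants, while Knl1 in the same window was even. Bmf and Ivd were called for CAST in their lncRNA records (48 and 6 reads, 56 and 17). Their protein-coding records were not called (55.7% and 61.3% CAST). Around Aurka, 2 of 9 records were called, both for CAST, namely Cass4 (551 and 125 reads) and Gm14455 (439 and 110). Cstf1, at 10.0 kb from centre to centre, had 388 and 336 reads and was not called. Near Ndc80, 1 of 10 records was called for each allele, and the only one near Cenpq, Mmut, was not called.

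**Figure D5:**
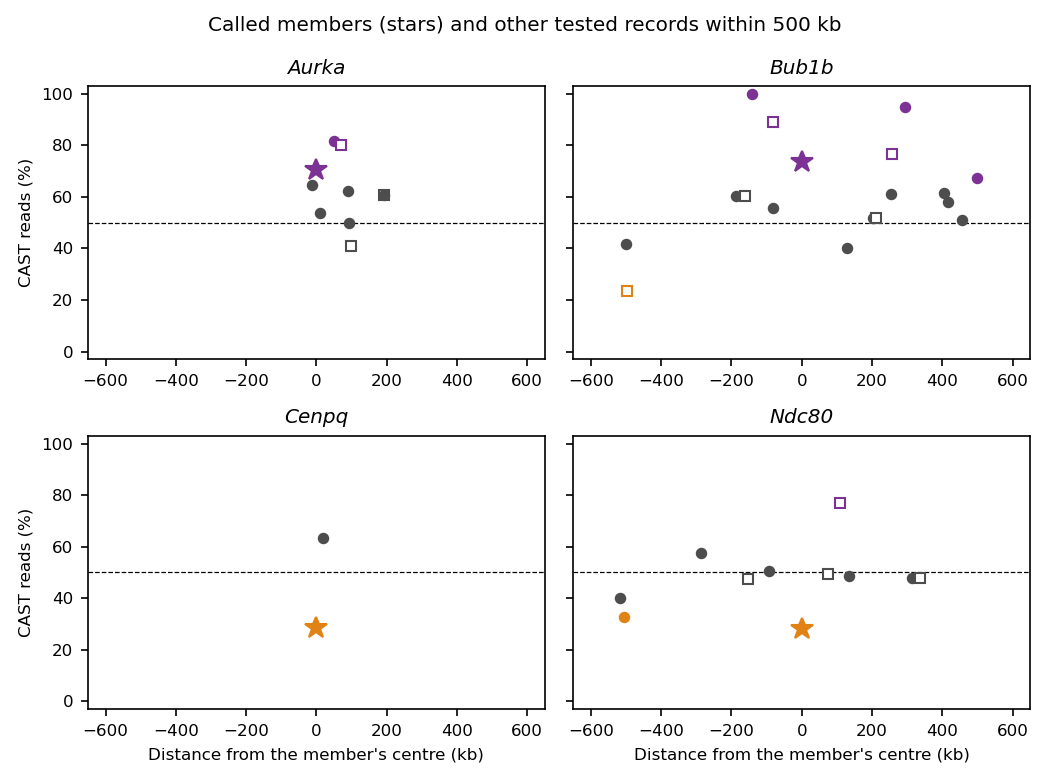
CAST reads (%) of each called member (star) and of all other tested records whose span lies within 500 kb of its span, against the distance between gene centres in kb, which can be longer; circles are protein-coding and squares lncRNA records, purple and orange mark ASE with more CAST and S129 reads, and grey records were not called. Around Bub1b, 5 records are purple and 1 is orange, around Aurka 2 are purple, and around Ndc80 and Cenpq most records lie near the dashed line at 50% or on the other side of it.

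Other genes of mitosis included APC/C subunits, mitotic kinesins, condensins and centromere assembly factors. ASE was called in 12 of their 114 tested records of 83 genes (10.5%), 9 with more CAST and 3 with more S129 reads. Of all tested records, 14.1% were called, 8.33% for CAST and 5.78% for S129. The median CAST share of the 114 records was 51.2% (50.1% over all), and 43.0% of them leaned to S129 (48.1% over all). By adjusted p alone, 35 had more CAST and 32 more S129 reads (58.8% together, against 48.3%). The called records came from 10 genes. Hjurp, the chaperone that loads the centromeric histone, had 1610 CAST and 285 S129 reads (85.0%), and Ube2s, which extends ubiquitin chains for APC/C, had 3853 and 965 (80.0%). Fbxo5 (Emi1), an inhibitor of APC/C, was called for S129 in both records, with 712 and 1672 reads in the protein-coding one. Nusap1, a spindle protein, was called for CAST in both, with 394 and 141 reads in the protein-coding one. Top2a, the topoisomerase that untangles sister chromatids, was called in its lncRNA record (550 and 167), but not in its protein-coding record with 15195 and 15844 reads (49.0%). Anapc15, an APC/C subunit, was called in its lncRNA record (17 and 4). Oip5, which acts before Hjurp at centromeres, had 120 CAST and no S129 reads from 2 variants, at least 40-fold higher in CAST when S129 is set to the limit of 3 reads that a count of 0 allows. Mad2l2 (176 and 81) and Cenpj (241 and 111) were called for CAST, and Itgb3bp, described above with Cenpq, for S129, each in its protein-coding record alone.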

How the data were processed

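Total RNA-seq of F123 mESCs was analysed from the deposited table of both replicates pooled. The authors aligned reads to mm10 (GRCm38.p6) with STAR (version 2.7.2c), removed duplicates with Picard and counted allelic reads at strain variants in exons and introns with GATK ASEReadCounter. The deposited allelic counts are sums over the variants of a record, so a read can be counted at several variants. For the deposited TPM, the authors scaled HTSeq counts by length and library size. The authors kept 1 transcript per gene and class by RNA polymerase II occupancy. Other columns hold the authors' allelic ratios, fold changes, p-values and ASE classes, which were not used.

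Tested records had a TPM of at least 1 and allelic reads. Two-sided exact binomial tests (null share 0.5) were adjusted over all records with allelic reads, whatever their TPM. Standard errors follow from the counts and intervals are exact (Clopper-Pearson, 95%). Members, lists and tests were chosen with earlier results of these data known. Named in full are called records, the 10 highest protein-coding TPMs, the 6 largest uncalled fold changes with at least 100 reads, the 4 records with most reads and both records of a gene; the other members are given by role. The other mitotic genes were 89 listed symbols, of which 86 were found, and the 8 called genes with the highest TPM are named, with Cenpj and Itgb3bp added after their values were seen. The mESC, fibroblast and germ layer markers were fixed lists of 8, 8 and 6 genes. Neighbours were tested records of other genes whose span lay within 500 kb of the span of a called record. Coordinates are 1-based. Tests ran in scipy (1.17.1) under Python (version 3.11.15), tables in pandas (2.3.3) and numpy (2.4.6), and plots in matplotlib (3.10.9).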

Additional observations from a re-analysis of the deposited data

How the results depend on the processing

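The 4 member calls (2 for each allele) were kept with minimum reads of 20 or 100, TPM minima of 0 or 5, the CAST share of all reads as null, 1 read added to each allele, an adjusted p of at most 0.01 or adjustment over expressed records. The median absolute log2 fold change of members stayed between 0.28 and 0.29. With a beta-binomial correlation of 0.05, calls fell to 0 for members (0 for CAST and 0 for S129), 487 in all tested records and 3 in other mitotic genes. By adjusted p alone, 40 member records passed, 4 at a correlation of 0.01 and 0 at 0.05. A 1.5-fold minimum gave 10 member calls (16.4%, 4 for CAST, 6 for S129), 4088 in all (25.7%) and 20 in other mitotic genes (17.5%). With no fold minimum there were 40 (65.6%, 14 and 26), 7701 (48.3%) and 67 (58.8%). Among protein-coding records alone, 3 members were called (7.14%, 2 for CAST and 1 for S129), against 1305 of all tested records (12.8%). In all tested records, 1444 were called with at least 100 reads (11.9%, against 7.02% of members). With a TPM of at least 5, 1117 were called (11.7%, against 7.41% of members). With at least 10 variants, an alternative chosen after seeing the data, Cenpq was lost, leaving 1 member called for S129, 880 in all and 5 in other mitotic genes. The shares called were then 6.67% of members, 9.55% of all tested records and 6.25% of other mitotic ones. The median TPM of members exceeded that of all expressed records by 1.58 on the log2(TPM + 1) scale, and that of all records, with no TPM minimum, by 3.54. Using TPM over exons for the minimum, also chosen after seeing the data, the 4 calls were the same. The cause of these shifts was not tested, other than that fewer records enter under stricter minima.

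No paired analysis was possible because the table gives no columns per replicate, and for the same reason leaving out each replicate was not run. With reads pooled, the spread between replicates is unknown, and the 4 variants of Cenpq and the 1 or 2 variants of some lncRNA records limit what can be said of them.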
